A study of Mus musculus with 12 samples.

Results

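Genes of the response to low oxygen and of the VEGF family are described across the time course of a mouse breast cancer cell line turning into fat cells: Hif1a, Epas1, Egln1, Egln3, Vegfa, Vegfb, Vegfc, Bnip3 and Adm. They were taken from a named list, which was drawn up with earlier results of these data known, and all 9 were found among the 17090 genes of the counts table and passed the filter on low counts, which left 12740 genes to test. The cells, MTΔECad, are a mesenchymal mouse breast cancer line. RNA was sequenced at 0 h, 6 h, day 3, day 5, day 7 and day 10, with 2 libraries a time point that the labels call biological replicates, from 2 independent experiments. All groups are the same line, seeded at 20000 cells per cm2 and left overnight. The 0 h libraries precede treatment, the 6 h and day 3 libraries had 200 ng/ml of the growth factor BMP2 alone, and BMP2 was then joined for 4 days by 2 µM rosiglitazone, which activates the fat cell regulator PPARγ. Day 5 and day 7 fall in that second phase, and day 10 follows 3 days of rosiglitazone without BMP2. None of the samples was an untreated culture of matched age, so time, cell density and treatment cannot be told apart, and no oxygen level or low-oxygen control was given in the labels.

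Cells sense oxygen through the hypoxia-inducible factors (HIFs), which pair an oxygen-labile alpha subunit with a stable beta subunit. Hif1a and Epas1 encode the alpha subunits HIF-1α and HIF-2α. When oxygen is present, the prolyl hydroxylases encoded by Egln1 (PHD2) and Egln3 (PHD3) mark the alpha subunits for capture by the VHL protein and destruction, so their control is largely at the protein level, which RNA counts do not show. When oxygen is low, HIFs bind DNA at a short core motif and raise a set of target genes that includes Egln1, Egln3, Vegfa, Bnip3 and Adm. Vegfa encodes the main growth factor for blood vessels, Vegfb a relative with a role in muscle and fat tissue, and Vegfc the growth factor for lymphatic vessels. Bnip3 encodes a mitochondrial outer membrane protein that marks mitochondria for removal by mitophagy, and Adm the vasodilating peptide adrenomedullin. In fat tissue, adipocytes are a known source of VEGF-A.

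In mouse genome build GRCm38 (mm10, the build of the alignment), with gene bounds from GENCODE M21, Hif1a (Entrez 15251) lies at chr12:73901324-73947554 and Epas1 (13819) at chr17:86753864-86833410, both on the plus strand. Egln1 (112405) lies at chr8:124908587-124949254 and Egln3 (112407) at chr12:54178981-54203874, both on the minus strand. Vegfa (22339) lies at chr17:46016993-46032377 and Vegfb (22340) at chr19:6982472-6987651, both on the minus strand, and Vegfc (22341) at chr8:54077532-54186454 on the plus strand. Bnip3 (12176) lies at chr7:138890836-138909506 on the minus strand and Adm (11535) at chr7:110627657-110629820 on the plus strand. Exons of Hif1a overlap 330 bases of the antisense gene Gm15283 and 148 bases of Gm49321 on the same strand, and exons of Bnip3 overlap 504 bases of the antisense gene Gm45507. Whether the counting used strand is not given in the sources used here, so reads from such overlaps could not be assigned with certainty. The other 7 genes shared no exonic base with another gene.

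Library totals ran from 12820802 to 17570366 counts, and replicates of a time point correlated at 0.992 to 0.9946 on the log2 scale. Levels below are in CPM (read counts scaled to library size, with TMM factors) and are given as replicate 1 and replicate 2. Log2 fold changes come with a standard error (SE) and a Benjamini-Hochberg adjusted p over all 12740 genes from the quasi-likelihood F test of edgeR, called at an adjusted p below 0.05. With 2 libraries a time point, that test takes its spread from all 12 libraries. The summed level of 9 adipocyte markers was 26.07 to 31.53 CPM at 0 h and 34590 to 36020 CPM at day 10, and that of 7 mesenchymal markers was 11250 to 11640 CPM at 0 h and 3271 to 3701 CPM at day 10. Of these 7, 4 were called lower at day 10 (Vim, Fn1, S100a4 and Cdh2) and 3 higher (Zeb1, Zeb2 and Twist1). Their part in the changes below was not tested. Of 10 endothelial markers, 7 had values (not Tie1, Cldn5 and Emcn) and summed to between 1.367 and 4.442 CPM over the 12 libraries. At day 10 Cdh5 and Kdr were at 0 counts, Egfl7 and Esam were called lower than at 0 h, and Pecam1 was called higher, with 1 count at 0 h and 90 at day 10 (ratio 111, 95% exact counting interval 19.4 to 4420), a mean of 3.693 CPM. Of 7 leukocyte markers, 5 had values (not Adgre1 and Itgam) and summed to between 8.354 and 15.21 CPM and the 5 smooth muscle and pericyte markers to between 0.3672 and 2.374 CPM. In bulk RNA a change in the share of cells of a kind and a change in RNA per cell cannot be told apart.

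All 9 genes differed between time points in the joint test of all 6, as did 94.7% of all genes tested, so that count carries little about these genes. At day 10, 7 of the 9 were higher than at 0 h (Epas1, Egln1, Egln3, Vegfa, Vegfb, Bnip3 and Adm), Vegfc was lower, and Hif1a was not called. Of all genes, 42.8% were called higher and 39.9% lower in that comparison. The median log2 fold change of the 9 was 2.09, against 0.06 for all genes. The 3 largest rises were those of Bnip3 (81.1-fold), Egln3 (25.2-fold) and Epas1 (15-fold), followed by Vegfa (14.2-fold).

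**Figure D1:**
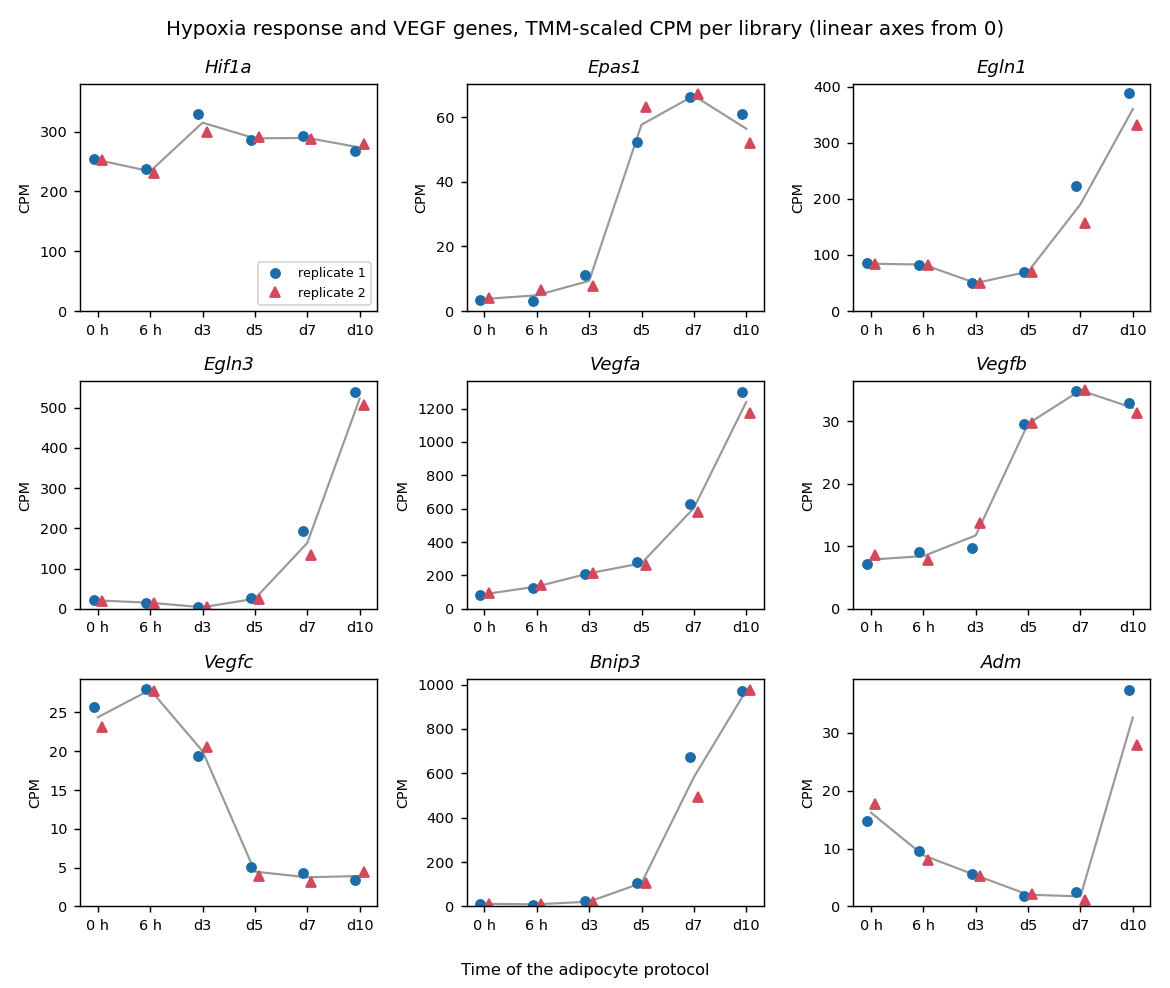
Level of each of the 9 genes in CPM (a linear axis from 0 in each panel) against the time of the protocol, with 1 symbol per library (circles replicate 1, triangles replicate 2) and a line through the mean of each time point. Egln3 and Adm dip before they rise, Vegfa climbs at every step, Epas1 and Vegfb level off from day 5, Vegfc drops between day 3 and day 5, and Hif1a stays between 230.2 and 329.5 CPM.

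Against the shared 0 h libraries, 1 of the 9 was called higher and none lower at 6 h, where 0.534% of all genes were higher and 0.212% lower. At day 3, 5 were higher and 3 lower (all genes 33.1% and 35.0%), at day 5, 5 higher and 2 lower (40.3% and 37.6%), and at day 7, 7 higher and 2 lower (41.7% and 39.4%). Taken step by step, 5 rose and 4 fell from 6 h to day 3 (all genes 32.9% and 35.5%), and 6 rose and 2 fell from day 3 to day 5 (34.0% and 31.0%). The calls from 6 h to day 3 were lost for Epas1 without replicate 1 of 6 h or of day 3 (0.0518 and 0.116), for Vegfb without replicate 2 of 6 h or of day 3 (0.102 and 0.242), and for Adm without replicate 1 of 6 h or replicate 2 of day 3 (0.0802 and 0.0606). From day 5 to day 7, 4 rose and none fell (19.0% and 18.8%), and from day 7 to day 10, 5 rose and none fell (15.1% and 13.2%). The 4 that rose from day 5 to day 7 were Egln1, Egln3, Vegfa and Bnip3, and from day 7 to day 10 these 4 rose again, joined by Adm. With 9 genes these shares are coarse, and the comparisons against 0 h reuse the same 2 control libraries.

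**Figure D2:**
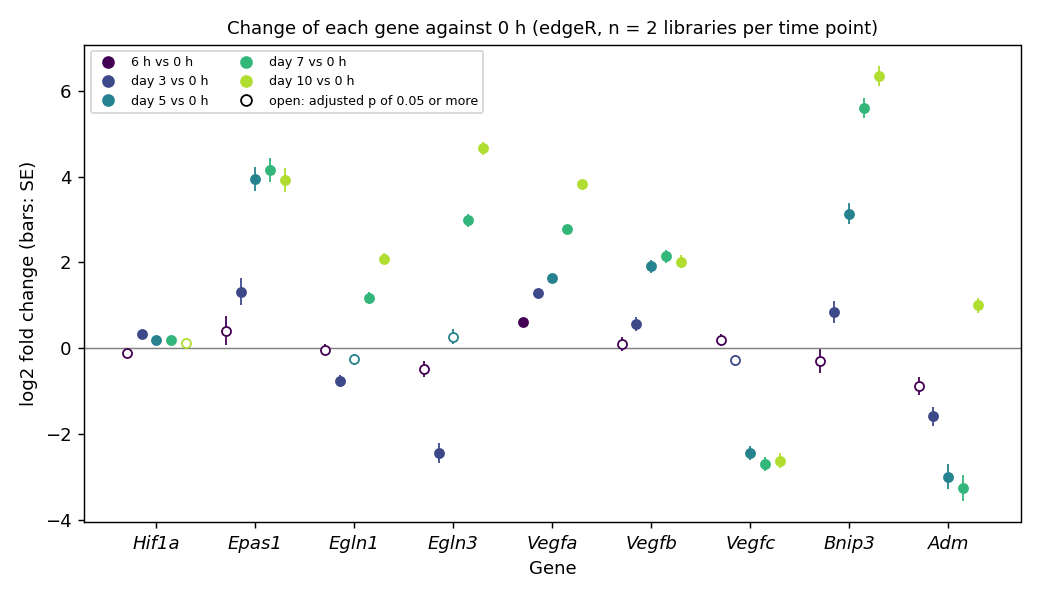
Log2 fold change of each of the 9 genes (x axis) against 0 h at the 5 later time points (colours), with bars for the standard error and filled points for an adjusted p below 0.05 (edgeR, n = 2 libraries a time point). Day 10 runs from -2.62 for Vegfc to 6.34 for Bnip3, and Adm turns from -3.25 at day 7 to 1.00 at day 10.

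The 2 alpha subunit genes parted. Hif1a moved little: it stood at 253.3 and 251.6 CPM at 0 h, 236.8 and 230.2 at 6 h, 329.5 and 300.0 at day 3, 286.1 and 291.2 at day 5, 291.7 and 286.9 at day 7, and 267.7 and 279.2 at day 10. Its highest time point mean was 1.35 times its lowest, the narrowest range of the 9 genes. The day 3 libraries were above all others, and in the order of the 6 means no neighbouring pair was called different. Hif1a was 0.32 (SE 0.067) higher on the log2 scale at day 3 than at 0 h (adjusted p = 0.00048), and 0.12 (SE 0.067) higher at day 10, which was not called (adjusted p = 0.122). Rises of 0.19 at day 5 (adjusted p = 0.0148) and 0.20 at day 7 (adjusted p = 0.0129) against 0 h were called, but both calls were lost with no filter on low counts (0.0938 and 0.0582). They were also lost without either 0 h library (0.0608 and 0.0722 at day 5, 0.0551 and 0.0659 at day 7), without either day 5 library (0.0518 and 0.0526) and without replicate 1 of day 7 (0.0617).

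Epas1 rose instead, mostly between day 3 and day 5. Its levels were 3.525 and 3.957 CPM at 0 h, 3.254 and 6.512 at 6 h, 11.05 and 7.631 at day 3, 52.33 and 63.07 at day 5, 66.18 and 67.22 at day 7, and 60.92 and 52.0 at day 10. All libraries from day 5 on lay above all libraries up to day 3. The gain from day 3 to day 5 was 2.62 (SE 0.22) on the log2 scale, a 6.16-fold change (adjusted p = 1.23e-06), and the gain from 0 h to day 10 was 3.91 (SE 0.28; adjusted p = 6.02e-08). No difference between days 5, 7 and 10 was called, nor between 0 h and 6 h. The libraries of day 10 lay below those of day 7 without overlap, and that difference (log2 fold change -0.24, SE 0.19; adjusted p = 0.381) was called when only the 4 libraries compared were fitted (0.0302). The rise from 6 h to day 3 (0.91, SE 0.28; adjusted p = 0.0132) rested on 50 to 174 counts a library, and ranged from 0.52 to 1.52 with a library left out.

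Because raw counts grow with transcript length, the 2 subunits were compared per kilobase, with the gene lengths in the deposited table. Per kilobase, Hif1a stood 77.5 and 68.6 times above Epas1 in the 0 h libraries, 32.2 and 42.4 times at day 3, 5.9 and 4.98 times at day 5, and 4.74 and 5.79 times at day 10. Hif1a therefore stayed the higher of the 2 in all 12 libraries, and the distance shrank with the rise of Epas1 rather than a fall of Hif1a, which was at 51.0 and 50.7 CPM per kilobase at 0 h and 53.9 and 56.2 at day 10.

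**Figure D3:**
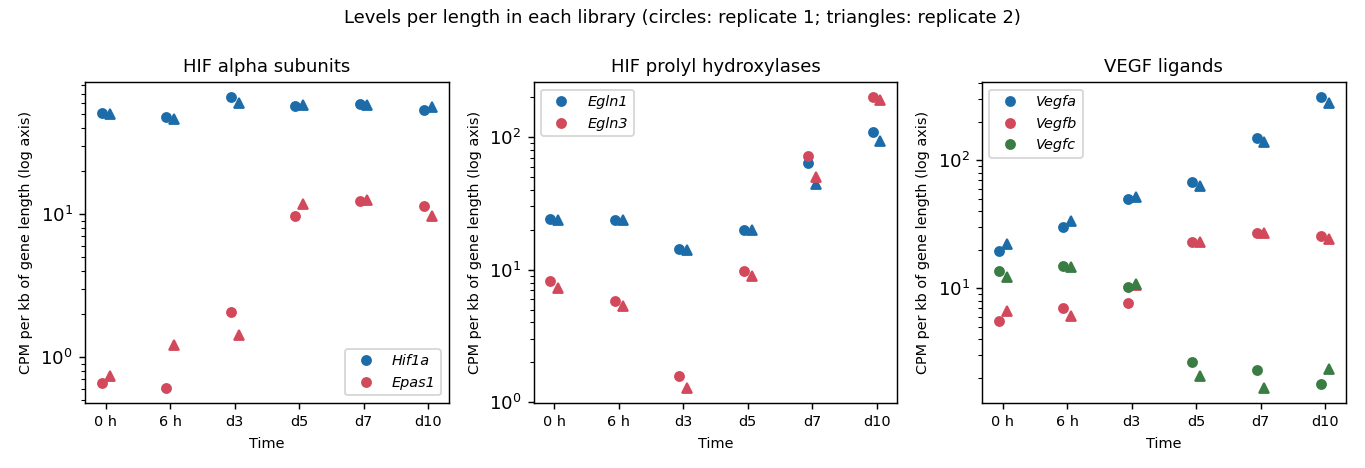
Levels per kilobase of gene length (CPM per kb, log axis) at each time point, with 1 symbol per library, for the alpha subunits Hif1a and Epas1 (left), the hydroxylases Egln1 and Egln3 (middle) and the 3 VEGF genes (right). The gap between Hif1a and Epas1 narrows up to day 5, Egln3 stands above Egln1 from day 7, and Vegfc drops below Vegfb at day 5.

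Egln1 and Egln3 both fell to a minimum at day 3 and rose from there to day 10. The rise of Egln1 came mostly after day 5, and that of Egln3 was steep from day 3 on. Egln1 was at 84.96 and 83.95 CPM at 0 h, 82.9 and 82.81 at 6 h, 50.24 and 49.47 at day 3, 70.36 and 70.29 at day 5, 223.4 and 157.1 at day 7, and 388.5 and 331.5 at day 10. The day 3 libraries were the lowest and the day 10 libraries the highest, with no overlap with any other time. The fall to day 3 was 0.76 on the log2 scale (log2 fold change -0.76, SE 0.14; adjusted p = 0.000366). The rise from 0 h to day 10 was 2.09 (SE 0.13; adjusted p = 1.51e-08), and 2.85 (SE 0.13) when taken from the day 3 minimum. The partial recovery from day 3 to day 5 (0.50, SE 0.14; adjusted p = 0.00743) was not called without replicate 2 of day 3 (0.0541) or replicate 1 of day 5 (0.0507), and the step from day 7 to day 10 (0.92, SE 0.13; adjusted p = 0.000244) was not called when only the 4 libraries compared were fitted (0.0925).

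Egln3 followed the same course over a wider span. It was at 21.88 and 19.6 CPM at 0 h, 15.42 and 14.38 at 6 h, 4.192 and 3.421 at day 3, 26.04 and 23.99 at day 5, 193.9 and 133.6 at day 7, and 538.8 and 506.1 at day 10. At day 3 it lay 5.42-fold below 0 h (log2 fold change -2.44, SE 0.24; adjusted p = 1.68e-06). Egln3 then rose 6.55-fold from day 3 to day 5 (log2 2.71, SE 0.24; adjusted p = 5.83e-07). The rise from day 5 to day 7 was as large, at 6.54-fold (log2 2.71, SE 0.15; adjusted p = 2.1e-07). By day 10 it lay 137.0-fold above day 3 (log2 7.10, SE 0.23; adjusted p = 2.08e-11) and 25.2-fold above 0 h (log2 4.66, SE 0.15; adjusted p = 9.86e-11). Highest to lowest mean, this was the widest range of the 9 genes, ahead of that of Bnip3. Day 5 lay above 0 h without overlap (log2 0.27, SE 0.17), which was not called (adjusted p = 0.161). It was called with no filter on low counts (0.031), with only the 4 libraries compared (0.0425) and without either day 7 library (0.0159 and 0.0155). Like Egln1, Egln3 differed between the libraries of day 7, where replicate 1 was the higher for both.

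The balance of Egln1 and Egln3 turned over. Per kilobase, Egln3 was 0.339 and 0.307 times Egln1 at 0 h, 0.11 and 0.0911 times at day 3, 0.487 and 0.449 times at day 5, 1.14 and 1.12 times at day 7, and 1.83 and 2.01 times at day 10. The 2 libraries of day 7, which differed in the level of each gene, gave nearly the same ratio.

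Among the VEGF ligands, Vegfa rose at every step. It was at 81.51 and 93.1 CPM at 0 h, 125.2 and 141.3 at 6 h, 209.4 and 215.6 at day 3, 282.1 and 262.9 at day 5, 625.8 and 581.5 at day 7, and 1302.0 and 1176.0 at day 10. No library of a time point overlapped those of the time before, and all 5 steps were called. The total gain from 0 h to day 10 was 3.83 (SE 0.087) on the log2 scale (adjusted p = 8.72e-16), and the gains from day 5 to day 7 (1.15, SE 0.085) and from day 7 to day 10 (1.04, SE 0.084) were each a little over a doubling. Vegfa was also the only 1 of the 9 called at 6 h, with a gain of 0.61 (SE 0.088; adjusted p = 0.00175). That call was lost without replicate 1 of 0 h (0.0656) or without replicate 2 of 6 h (0.0532).

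Vegfb rose once and stayed up. Its levels were 7.196 and 8.531 CPM at 0 h, 9.045 and 7.814 at 6 h, 9.78 and 13.68 at day 3, 29.58 and 29.65 at day 5, 34.89 and 35.0 at day 7, and 32.88 and 31.4 at day 10. The step from day 3 to day 5 was 1.34 (SE 0.14; adjusted p = 1.98e-07), and no difference between days 5, 7 and 10 was called. From 0 h to day 10 the gain was 2.02 (SE 0.15; adjusted p = 8.52e-10). The smaller rise from 0 h to day 3 (0.57, SE 0.16; adjusted p = 0.00404) was not called without replicate 2 of day 3 (0.11), the higher of that pair.

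Vegfc went the other way. It was at 25.63 and 23.12 CPM at 0 h, 28.05 and 27.78 at 6 h, 19.43 and 20.59 at day 3, 5.034 and 3.938 at day 5, 4.362 and 3.148 at day 7, and 3.404 and 4.442 at day 10. All libraries up to day 3 lay above all later ones. The drop from day 3 to day 5 was 4.46-fold (log2 fold change -2.16, SE 0.17; adjusted p = 3.78e-09), and day 10 lay 6.15-fold below 0 h (log2 fold change -2.62, SE 0.18; adjusted p = 2.22e-10). No difference between days 5, 7 and 10 was called. Vegfc fell in the same interval in which Epas1 and Vegfb made their largest step up.

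The mix of VEGF transcripts shifted. Of the 3 genes' summed level per kilobase, Vegfa made up 50.4% and 54.1% at 0 h, 73.6% and 70.5% at day 3, and 91.9% and 91.3% at day 10. Vegfc made up 35.1% and 29.8% at 0 h, 15.2% and 14.9% at day 3, 2.87% and 2.37% at day 5, and 0.533% and 0.765% at day 10. Vegfb was at 14.5% and 16.1% at 0 h, reached 24.7% and 26.2% at day 5, and was at 7.56% and 7.94% at day 10, where its own level was not called different from day 5 and that of Vegfa had grown 4.55-fold.

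Bnip3 had the largest gain against 0 h. It stood at 11.38 and 12.55 CPM at 0 h, 7.028 and 12.37 at 6 h, 23.75 and 19.47 at day 3, 103.9 and 107.7 at day 5, 671.5 and 493.3 at day 7, and 970.8 and 976.2 at day 10. From day 3 on each time point lay above the one before, without overlap. The gains were 2.29 (SE 0.22; adjusted p = 2.14e-05) from day 3 to day 5 and 2.46 (SE 0.19; adjusted p = 3.13e-05) from day 5 to day 7. The gain from 0 h to day 10 was 6.34 (SE 0.23; adjusted p = 1.93e-08). The smaller steps were less firm: the rise of 0.85 (SE 0.26) from 0 h to day 3 (adjusted p = 0.0163) was not called without replicate 1 of 0 h (0.0773), replicate 2 of 0 h (0.0508) or replicate 1 of day 3 (0.115). The rise of 0.74 (SE 0.19) from day 7 to day 10 (adjusted p = 0.0204) was not called without replicate 2 of day 7 (0.0968) or either day 10 library (0.0855 and 0.0897).

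Adm took a course of its own: it declined for most of the protocol and then rose at the end. It was at 14.76 and 17.62 CPM at 0 h, 9.565 and 8.086 at 6 h, 5.589 and 5.197 at day 3, 1.865 and 2.208 at day 5, 2.423 and 1.049 at day 7, and 37.45 and 27.8 at day 10. Both day 10 libraries lay above all others. Adm was 9.49-fold lower at day 7 than at 0 h (log2 fold change -3.25, SE 0.30; adjusted p = 1.11e-08). With a library left out, that log2 fold change ranged from -3.94 to -2.74. From day 7 to day 10 Adm gained 4.25 (SE 0.29) on the log2 scale, or 19.0-fold (adjusted p = 1.08e-08). That was the largest change of the 9 genes over that step, at 3.74 to 4.94 with a library left out. Adm ended 2.0-fold above 0 h (log2 1.00, SE 0.18; adjusted p = 0.000108). The lowest library held 17 counts and the highest 418. The fall by 6 h (log2 fold change -0.88, SE 0.20) was not called (adjusted p = 0.0602), but it was with no filter on low counts (1.49e-06), with DESeq2 (0.0325), with only the 4 libraries compared (0.00311) and without either day 7 library (0.0177 and 0.0174).

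The DNA before the transcription start of these genes was searched for the HIF core motif, in the 2 forms ACGTG and GCGTG on either strand (read as CACGT and CACGC on the other). RefSeq windows of build GRCm38.p6, reaching from 250 bases before to 50 bases after the start, matched 8 of the 9 genes, with 2 starts for Vegfa. Stretches of 150 bases before the start are printed for Egln1, Egln3, Bnip3 and Adm, 4 of the 5 genes that rose from day 7 to day 10. Vegfa, the other of the 5, is not printed. Hif1a, whose level hardly moved, is printed too. The Egln3 stretch lies further from the start than the rest and takes in the only match of its window. The printed stretches are therefore not an even sample of the windows. Each runs 5′ to 3′ on the strand of its gene, and capitals mark the motif matches. Bnip3 is at chr7:138909507-138909656 (minus strand), Egln1 at chr8:124949255-124949404 (minus), Egln3 at chr12:54203975-54204124 (minus; bases 250 to 101 before the start), Adm at chr7:110627507-110627656 (plus) and Hif1a at chr12:73907717-73907866 (plus).
Bnip3: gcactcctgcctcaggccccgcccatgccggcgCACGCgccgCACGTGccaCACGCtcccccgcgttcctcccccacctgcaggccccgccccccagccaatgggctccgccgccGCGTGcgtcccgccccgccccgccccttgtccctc
Egln1: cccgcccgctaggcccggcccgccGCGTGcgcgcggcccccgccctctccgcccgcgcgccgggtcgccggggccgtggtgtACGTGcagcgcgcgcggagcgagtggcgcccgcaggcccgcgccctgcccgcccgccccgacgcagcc
Egln3: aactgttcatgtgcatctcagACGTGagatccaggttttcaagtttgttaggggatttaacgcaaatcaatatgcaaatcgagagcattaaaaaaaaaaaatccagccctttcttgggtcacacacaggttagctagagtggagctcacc
Adm: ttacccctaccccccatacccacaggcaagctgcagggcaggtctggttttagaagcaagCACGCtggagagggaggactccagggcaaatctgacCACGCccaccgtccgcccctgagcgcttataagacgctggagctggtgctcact
Hif1a: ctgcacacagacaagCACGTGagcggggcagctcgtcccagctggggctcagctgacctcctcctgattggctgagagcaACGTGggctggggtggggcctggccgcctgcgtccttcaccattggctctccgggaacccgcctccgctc

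In the whole windows, Bnip3 held 5 matches, Hif1a 3, Egln1, Adm and Vegfb 2 each and Egln3 1. Bnip3 and Hif1a each held CACGTG, which reads the same on both strands and so counts as 2 overlapping matches. Of the 2 Vegfa starts, 1 window held 2 matches and the other none, and Vegfc held none. A match was thus found in 7 of 9 windows, from 7 genes. The motif is common: 43.8% of 32851 windows of all genes, and 61.7% of 12758 windows of the genes tested here, held at least 1 match. At least 2 matches were found in 33.5% and at least 5 in 3.14% of the latter. Whether the number of matches goes with the change in level was not tested. A match describes letters in this window and is not a site of binding.

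**Figure D4:**
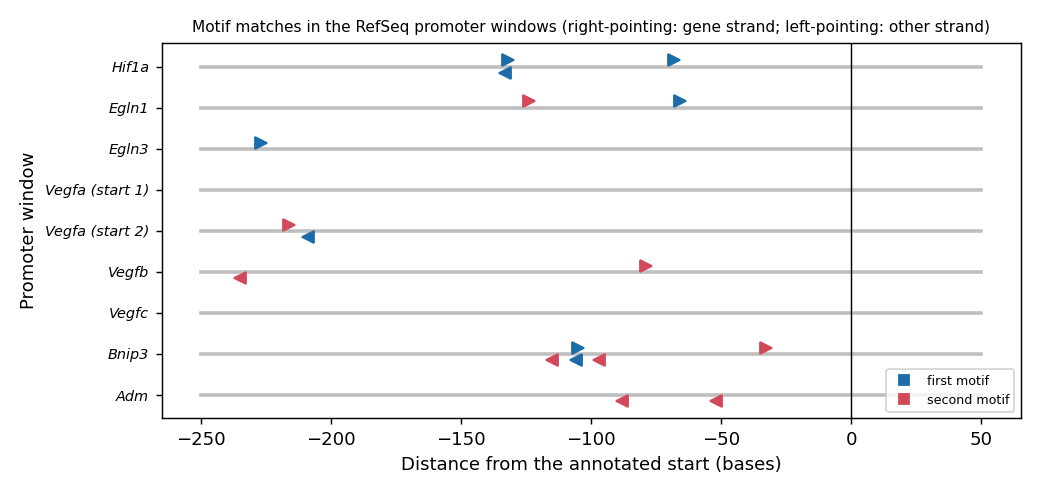
Place of each motif match in the promoter windows, as distance from the annotated transcription start in bases, for the 8 genes with a window (2 for Vegfa). Blue marks ACGTG (first motif), red GCGTG (second motif), and triangles point right for the strand of the gene and left for the other; Bnip3 has 5 matches, and Vegfc and the first Vegfa start have none.

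Among other genes of oxygen sensing, Vhl rose while Arnt2, Hsp90ab1 and Hsp90aa1 fell. Of 18 listed genes (partner subunits, other hydroxylases, the VHL complex, co-activators and chaperones), 17 had counts and were tested. At day 10 against 0 h, 5 were higher and 6 lower (all genes 42.8% and 39.9%), with a median log2 fold change of -0.04. Vhl, which encodes the protein that captures hydroxylated HIF-α, rose by 2.08. Arnt2, a beta subunit gene, had a log2 fold change of -1.43, and the HSP90 genes Hsp90ab1 and Hsp90aa1, chaperones with many clients besides HIF-α, of -1.86 and -1.03. Arnt, also a beta subunit gene, went the other way, from 35.84 and 36.35 CPM at 0 h to 47.39 and 47.87 at day 10. It was picked out after its values were seen. Hif3a was not analysed here.

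Genes listed here as HIF targets were mostly higher at day 10, as Egln3 and Bnip3 were. Of 35 listed outside glycolysis, 32 were tested, and 25 were higher and 5 lower at day 10 than at 0 h (all genes 42.8% and 39.9%), with a median log2 fold change of 2.11. Angptl4, which encodes an inhibitor of lipoprotein lipase and is also a PPARγ target, rose by 9.53, and Ero1a, an oxidase of protein folding, by 4.33. Selenbp1 had 1 count at 0 h against 5768 at day 10, a ratio of 7090 with a 95% exact counting interval of 1270 to 280000. The chemokine receptor gene Cxcr4 had no count at 0 h and 29 at day 10, which puts it at least 11.9-fold higher, with the 0 h group set to 3 counts in all. At day 3, 16 of the 32 were higher and 13 lower (all genes 33.1% and 35.0%).

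Most glycolytic targets were lower at day 3, as Egln1 and Egln3 were, and higher at day 10. Of 19 tested (20 listed), 15 were lower and 2 higher at day 3 than at 0 h (all genes 35.0% and 33.1%), with a median log2 fold change of -0.79. At day 10, 16 were higher and none was lower than at 0 h (all genes 42.8% and 39.9%), with a median of 1.69. The largest gains were those of Pdk1, which encodes a kinase that inhibits pyruvate dehydrogenase (5.02), the enolase gene Eno2 (4.32) and the hexokinase gene Hk2 (2.93). Of the 2 most abundant, Aldoa (aldolase) rose by 2.42 and Pkm (pyruvate kinase) by 0.36. The summed level of the 19 was 6460 to 6478 CPM at 0 h, 2703 to 3033 CPM at day 3 and 17650 to 18720 CPM at day 10. Gapdh, on the same list and picked out after its values were seen, had a mean of only 2.123 CPM at 0 h and 8.052 CPM at day 10. Why its counts were so low was not tested, so the sum and the ranking by abundance hold for these counts only. For all genes, the median log2 fold change was 0.0 at day 3 and 0.06 at day 10.

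Among the VEGF relatives and receptors, Nrp1 rose while Nrp2, Vegfd, Pgf and Flt1 fell. Of 7 listed relatives and receptors, 5 were tested, and at day 10 Nrp1 was higher and the other 4 lower than at 0 h (median -0.68; all genes 42.8% higher and 39.9% lower). Nrp1, a co-receptor also used by semaphorins, rose by 1.47, its relative Nrp2 had a log2 fold change of -0.68, and the ligand genes Vegfd and Pgf of -1.20 and -1.06. Kdr and Flt4, the main receptor genes for VEGF-A and VEGF-C, had 0 counts at 0 h and at day 10 and at most 1 count in any library. The receptor gene Flt1, in contrast, had counts in all libraries, with a mean of 28.79 CPM at 0 h and 20.38 CPM at day 10. These 3 genes were picked out after their values were seen. Of 13 other angiogenic ligands tested (17 listed), 5 were higher and 5 lower at day 10 (median -0.78), near the shares of all genes (42.8% and 39.9%). Angptl2 had a log2 fold change of -4.63 and the ephrin gene Efnb2 of -3.82, whereas Thbs1, an inhibitor of vessel growth and the most abundant of the list, was not called (0.12, adjusted p = 0.287). Fgf1 went from 1 count at 0 h to 51 at day 10, a ratio of 62.7 (95% exact counting interval 10.8 to 2530).

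Among genes around adrenomedullin, Ackr3 and Pam rose. Of 7 tested (9 listed), 5 were higher and 1 lower at day 10 than at 0 h (median 1.36; all genes 42.8% and 39.9%). At day 3, when Adm was lower, 4 were higher and 1 lower (all genes 33.1% and 35.0%). Ackr3, a scavenger receptor for adrenomedullin and CXCL12, rose by 5.82, and Pam, the enzyme that amidates the peptide, by 0.87. Of the receptor partners, Ramp3 fell from 625 counts to 1, a ratio of 508 (95% exact counting interval 90.9 to 20100), and Ramp2 went from no count to 24, at least 9.84-fold higher. The related peptide gene Adm2 went from no count to 42, at least 17.2-fold higher.

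Mitophagy genes were mostly higher at day 10, as Bnip3 was. All 17 relatives of BNIP3 and genes of mitophagy and its autophagy machinery were tested, and 15 were higher and 2 lower at day 10 than at 0 h (median 1.78; all genes 42.8% and 39.9%). At day 3, 13 were higher and 1 lower (median 0.94; all genes 33.1% and 35.0%), when the log2 gain of Bnip3 was 0.85. Pink1, the kinase that flags damaged mitochondria, rose by 3.93, the autophagy receptor gene Optn by 3.31, and Sqstm1 and Gabarap, the most abundant of the list, by 0.84 and 1.78.

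**Figure D5:**
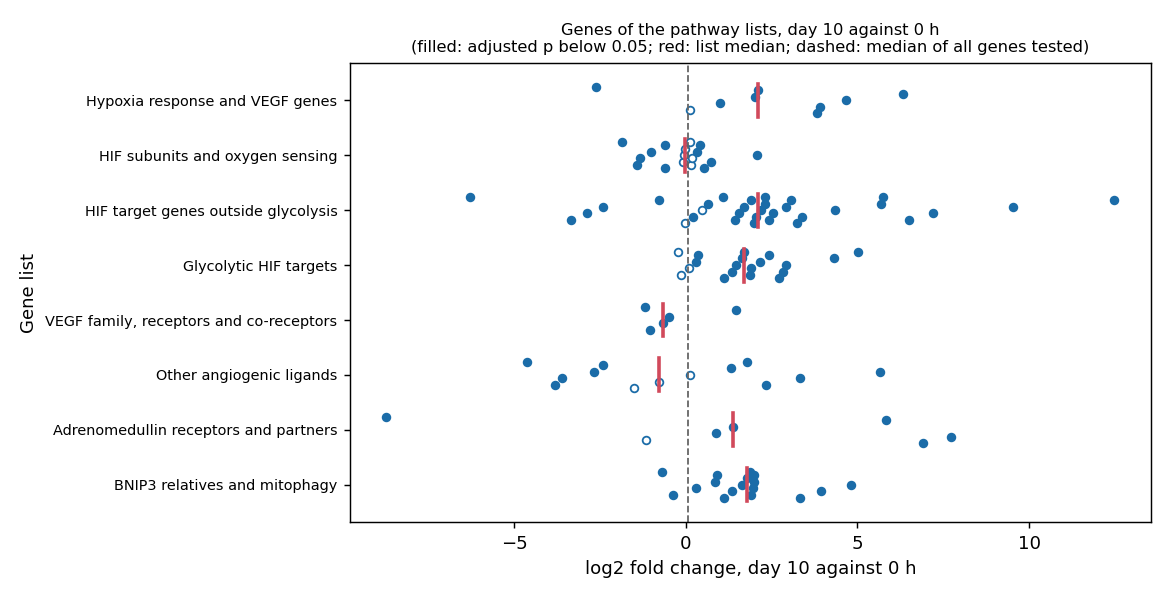
Log2 fold change at day 10 against 0 h of each tested gene (1 point, spread vertically within its list) for the 9 genes and the 7 pathway lists, filled where the adjusted p was below 0.05 (edgeR). Red bars mark list medians, such as 2.11 for HIF targets outside glycolysis and -0.68 for the VEGF relatives and receptors, and the dashed line the median of all genes, 0.06; values of genes with 0 to 3 counts in a group depend on the prior count.

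The genes whose courses were most like those of the 9 were sought over the 12 libraries among genes with a mean of at least 10 CPM, by Pearson correlation of log2 CPM, as a description. Epas1 was near to Trem2 (r = 0.994) and Idh1 (0.994), and Bnip3 to Scd1 (0.997), Acss2 (0.996) and Ccdc80 (0.996). Egln3 was nearest to Psma1 (0.993), Rmdn3 (0.992) and P4ha1 (0.991), and Egln1 to 9130401M01Rik (0.992), Dnajb2 (0.989) and the glycolytic gene Pfkp (0.989). Vegfa was nearest to Saraf (0.987), Pdk4 (0.983) and Eif4a2 (0.983), Vegfb to Nfrkb (0.993), Pnpla2 (0.991) and Amer1 (0.991), and Vegfc to Abcc1 (0.991), Cnih4 (0.990) and Cebpz (0.990). Hif1a, with its small range, was nearest to Btbd7 (0.966), Pik3c3 (0.965) and Kmt5b (0.959). Adm had the weakest matches, Mtf1 (0.945), Tmem237 (0.922) and Phactr4 (0.916). Libraries of a time point share their treatment, and 94.7% of genes changed over this course.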

How the data were processed

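RNA of MTΔECad cells was sequenced at 6 time points, 2 libraries each. Per the labels, a stranded kit for total RNA was used on 200 ng, although the labels also call the RNA poly-A+. The deposited values are raw read counts per gene for the whole series. STAR and mm10 are named in the submitters' processing notes, and no version, counting tool, annotation or strand setting was found in the labels or the file header. Of 17090 Entrez identifiers, 17045 matched a RefSeq table (GRCm38.p6) and 4 more GENCODE M21, and 41 matched neither.

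Counts were fitted with edgeR 4.0.16 (R 4.3.3), robust quasi-likelihood, TMM factors, 1 mean per time point, 6 residual degrees of freedom. The filter filterByExpr (minimum count 10, minimum total 15) removed 4350 genes. The spread between replicates (common coefficient of variation 0.0737) includes counting error, and at low counts the latter grows. P-values measure the spread between libraries of 2 independent experiments. Fold changes used a prior count of 0.125. Against 0 counts a floor of 3 counts over the group was used, and for 1 to 3 counts a plain ratio whose 95% exact interval holds counting error only. Alternatives were DESeq2 1.42.0, other scalings, filters and prior counts, the replicate number as a block, fits restricted to the 4 libraries compared, and each library left out. The fit was tested on simulated data.

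The 9 genes and all lists were chosen with earlier results of these data known. Named from each list are the 3 called genes with the largest change at day 10 against 0 h and the 2 most abundant, and for each of the 9 genes the 3 most correlated genes (log2 CPM, prior count 2, mean of at least 10 CPM). Bnip3l and Cxcl12 each stand on 2 lists. Genes outside this rule are marked as chosen after their values were seen. A few genes that the rule names are not reported here.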

Additional observations from a re-analysis of the deposited data

How the results depend on the processing

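At day 10 against 0 h all 9 genes kept their direction and their side of the threshold in all 20 alternatives. Over the 9 comparisons, 1559 of 1620 values did so, 27 lost a call, 25 gained one and 9 turned direction, none of the 9 called. Not every alternative could move a call. The prior count alters only the fold change, and leaving out a library of another time point acts only through the shared fit. At 6 h against 0 h, 1 of the 9 genes was called, against 3 with no filter on low counts, 2 with the replicate block, 2 with DESeq2, 3 with only the 4 libraries compared, and 0 to 3 with a library left out. Over all genes it called 95, against 275 with no filter, 223 with only the 4 libraries compared, and 35 to 141 with a library left out. Over all genes, day 7 against day 5 called 4815 (3128 to 5154 with a library left out, lowest without replicate 1 of day 7), and day 10 against day 7 called 3615 (2143 to 3998, lowest without replicate 2 of day 7, and 2351 and 2370 without day 10 replicates 1 and 2). Direction turned, with the range over libraries left out, for Vegfb (-0.02 to 0.22), Bnip3 (-0.77 to 0.04) and Epas1 (-0.21 to 0.79) at 6 h against 0 h, for Hif1a (-0.01 to 0.02; -0.03 with upper-quartile scaling) and Adm (-0.95 to 0.25) at day 7 against day 5, and for Vegfc (-0.14 to 0.33) at day 10 against day 7. The cause was not tested. Libraries of the same replicate number did not deviate together (r of -0.0913 to 0.193 over 15 pairs of time points, over 0.1 in 1), so the numbers were not taken to pair them. With the replicate block the fall of Adm at 6 h (adjusted p = 0.0378) and the differences of Egln1 (0.0451) and Egln3 (0.04) at day 5 against 0 h were called. Depth limits Adm, Epas1 and Vegfc most, with 17, 48 and 38 counts in their lowest libraries.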

Other observations

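The 2 day 7 libraries differed for several of these genes more than those of day 10, a pattern picked out after the values were seen. Replicate 1 was at least 1.3 times replicate 2 for Egln1, Egln3, Vegfc, Bnip3 and Adm, 5 of the 9 genes, and replicate 2 was so for none. Of these, Vegfc rested on 63 and 51 counts and Adm on 35 and 17, few enough for counting error to matter. Replicate 1 was also the higher by that margin for 10 of 32 HIF targets outside glycolysis (31.2%) and 3 of 19 glycolytic targets (15.8%). The same held for 808 of 12740 genes (6.34%) and 0 of 9 adipocyte markers. The median ratio of replicate 1 to replicate 2 was 1.36 for the 9 genes, 1.14 and 1.2 for these 2 lists, 1.07 for the adipocyte markers and 1.0 for all genes. Among other angiogenic ligands, replicate 2 was the higher by that margin for 7 of 13 (53.8%), against 8.16% of all genes. Of the 7, Fgf1, Fgf2 and Hgf had 0 counts in replicate 1 and only 4, 2 and 4 in replicate 2. Thbs2 had 28 and 66 counts, Pdgfb 94 and 158, Efnb2 241 and 388, and Angptl2 541 and 818. Counting error is large for the lowest of these. At day 10, replicate 1 was the higher by that margin for 1 of the 9 genes and replicate 2 for 1. What set the day 7 libraries apart was not tested.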
